A study of Homo sapiens with 44 samples.

Results

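The HOX genes examined here were the rows of the count tables named HOX, a cluster letter from A to D and a number from 1 to 13. This rule found 39 genes among the 19923 of each table, 11 in the HOXA cluster, 10 in HOXB, 9 in HOXC and 9 in HOXD. HOX genes encode homeodomain transcription factors that give cells their position along the head-to-tail axis of the embryo. Within a cluster the genes are ordered by the position they specify: low numbers (anterior genes) act toward the head and high numbers (posterior genes) toward the tail. Genes of the same number in different clusters are called paralogues, and in the trunk, where the sympathetic nervous system forms, cells keep a HOX pattern that records their level of origin.

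The data were 44 sequencing libraries in 16 groups from Kelly and NGP, human cell lines of neuroblastoma, a childhood tumour of the sympathetic lineage. Both lines are labelled WT and as carrying an amplified MYCN gene, and the controls carry it too. STM2457 is a small molecule that inhibits METTL3, the enzyme that places m6A (N6-methyladenosine) in mRNA. Kelly cells were kept with 8 µM STM2457, or with its solvent DMSO, for either 1 or 6 days, and NGP cells for 6 days. Kelly cells were also grown under the skin of nude mice, which were given 50 mg/kg STM2457 or vehicle (labelled DMSO) into the peritoneum daily for 14 days. Each condition had an input, made from poly(A) RNA broken into fragments, and a RIP, the fragments bound by an antibody to m6A. There were 3 libraries a group, and 2 in the xenograft groups. The labels do not say whether libraries came from separate cultures or animals, so p-values measure the spread between these libraries, which may be technical.

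Assigned fragments ran from 2144870 to 36497858 in a library. Depth was lowest in the xenograft inputs (2144870 to 7271929) and did not follow treatment evenly in Kelly at 6 days, where the DMSO inputs held 12086438 to 12780130 and the STM2457 inputs 28674672, 31487824 and 5765458. Of 13 neuroblastoma markers (HAND2, TH and others), 12 or 13 had at least 1 CPM (counts scaled to a common library total) in every group, and none was at 0 in all libraries of a group. Haemoglobin genes stayed at or below 1.82 CPM in sum. The 4 endothelial markers summed to 9.79 to 17.6 CPM in the xenografts against at most 3.91 CPM in the cultures. Most of this was VWF, with means of 15.4 CPM in the vehicle tumours and 1.93 CPM in the Kelly DMSO inputs of 6 days. In the same groups CDH5 was higher in the tumours (0.963 and 0.287 CPM) and KDR lower (0.138 and 0.649 CPM). PECAM1 had no fragment in either. Libraries are bulk RNA, so fewer cells expressing a gene and less RNA per cell cannot be told apart.

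By the coordinates of the deposited tables (GRCh38), HOXA lay at chr7:27093313-27200091 and HOXB at chr17:48528526-48729178, both on the minus strand. HOXC lay at chr12:53938831-54056030 and HOXD at chr2:176092721-176190907, both on the plus strand. Of the members, 20 had a promoter entry in RefSeq (GRCh38.p14). One promoter per cluster is shown, as the 250 bases before the start, to set the clusters that the lines used beside those they did not: HOXC4 and HOXD13 were expressed in both lines, HOXA7 in NGP, and HOXB1 in neither. Capitals mark CACGTG, the E-box that proteins of the MYC family can bind.
HOXC4 (chr12:54016638-54016887, plus strand): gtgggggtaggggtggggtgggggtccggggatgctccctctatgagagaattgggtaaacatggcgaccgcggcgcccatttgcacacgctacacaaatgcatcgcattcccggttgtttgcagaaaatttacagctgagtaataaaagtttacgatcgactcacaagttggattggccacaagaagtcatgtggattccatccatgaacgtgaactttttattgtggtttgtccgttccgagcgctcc
HOXD13 (chr2:176092471-176092720, plus strand): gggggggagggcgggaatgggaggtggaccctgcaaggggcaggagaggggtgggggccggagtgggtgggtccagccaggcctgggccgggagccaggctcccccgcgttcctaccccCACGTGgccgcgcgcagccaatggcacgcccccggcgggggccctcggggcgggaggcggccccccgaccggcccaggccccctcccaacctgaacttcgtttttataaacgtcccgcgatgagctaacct
HOXA7 (chr7:27156676-27156925, minus strand): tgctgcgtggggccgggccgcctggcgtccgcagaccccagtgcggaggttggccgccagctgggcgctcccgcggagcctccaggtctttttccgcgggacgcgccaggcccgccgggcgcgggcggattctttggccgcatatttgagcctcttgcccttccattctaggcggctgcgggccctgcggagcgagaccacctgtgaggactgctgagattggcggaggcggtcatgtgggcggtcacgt
HOXB1 (chr17:48531012-48531261, minus strand): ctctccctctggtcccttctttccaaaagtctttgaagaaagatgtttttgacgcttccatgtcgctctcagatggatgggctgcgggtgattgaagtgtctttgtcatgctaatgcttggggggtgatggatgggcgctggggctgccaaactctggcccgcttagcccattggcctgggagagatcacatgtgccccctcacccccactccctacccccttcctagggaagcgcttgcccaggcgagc
The HOXD13 window had the capitals 131 bases before the start. The CG dinucleotide occurred 14 times in the HOXC4 window, 21 times in HOXD13, 28 times in HOXA7 and 7 times in HOXB1. In windows of 300 bases (the 250 shown and the first 50 after the start), CACGTG, which reads the same on both strands, was present in 9 of 27 member entries (33.3%). Over all 35116 RefSeq entries the share was 7.26%. CACGTG itself holds a CG, and the median CG count was 22 in member entries and 14 over all. The part of CG content in the share was not tested. The 27 entries belong to 20 genes, with several for HOXA3. By cluster CACGTG was present in 5 of 8 HOXD entries, 4 of 16 HOXA, 0 of 2 HOXC and 0 of 1 HOXB, and the HOXA7 match lay across the start. TGATNNAT on either strand, a composite site of PBX and HOX proteins, was present in 11.1% of member entries and 7.4% of all. A match is a description of letters, not evidence of binding.

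HOXC and HOXD genes carried most of the HOX RNA of both lines. At 6 days in DMSO, 12 members of Kelly and 18 of NGP reached a mean of 1 FPKM (fragments scaled to the listed exon length and to library depth). All 12 of Kelly were among the 18 of NGP. The other 6 of NGP were HOXA5, HOXA6, HOXA7, HOXA10, HOXA11 and HOXD11. No HOXB gene reached it in any group of inputs.

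Paralogue groups 4 to 9 held 76.4% of the summed HOX FPKM of Kelly and 68.6% of that of NGP. Groups 1 to 3 held 13% and 8.28%, and groups 10 to 13 held 10.6% and 23.1%. Both lines thus had most of their HOX RNA in the middle of the clusters, and the posterior share was larger in NGP. The map of levels over all 39 genes shows this pattern.

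**Figure D1:**
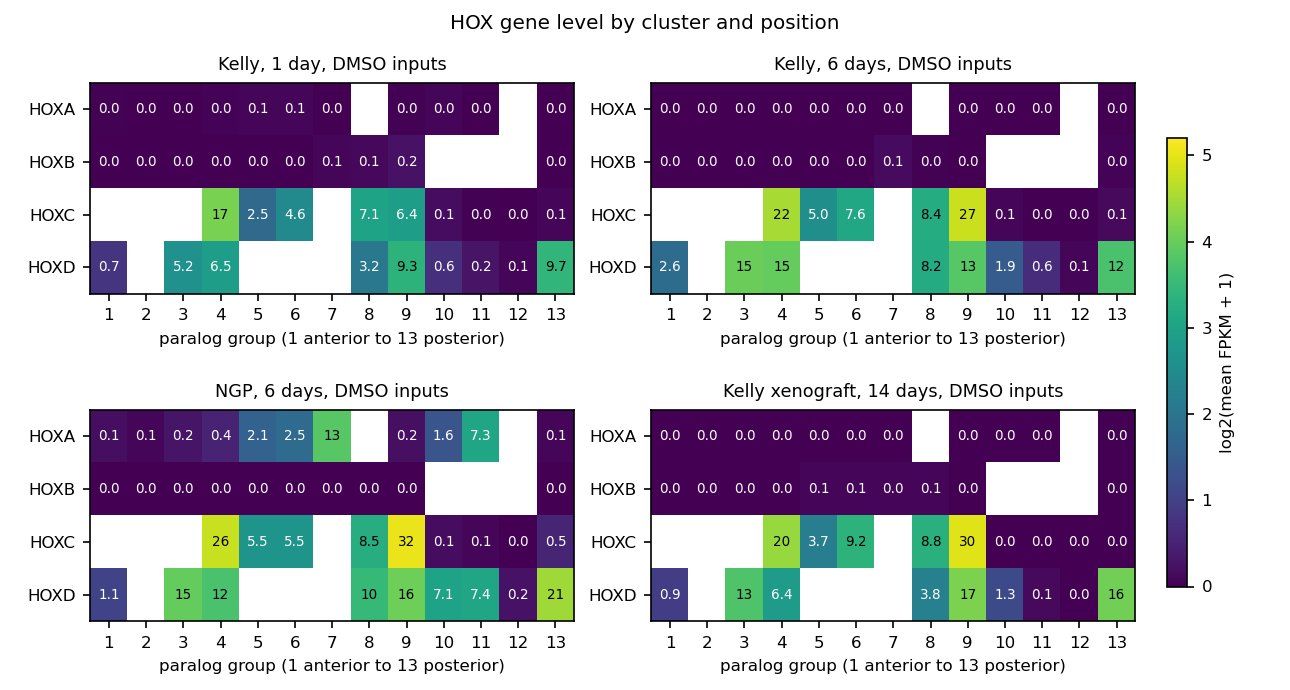
Mean FPKM in the DMSO inputs of each experiment (n = 3 libraries, 2 for the xenograft), by cluster and paralogue number. The HOXC genes from 4 to 9 and most HOXD genes are filled in every experiment, the HOXA row is filled in NGP alone and HOXB is near 0 throughout.

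HOXC9, a trunk gene of the ninth group, had the highest mean level of both lines at 6 days. It stood at 23.0, 28.8 and 27.9 FPKM in the Kelly DMSO inputs at 6 days and at 26.3, 39.4 and 31.1 FPKM in NGP. The ranges overlapped (log2 Kelly over NGP −0.08 ± 0.17 SE). HOXC4, a neck-level gene, followed at 22.9, 21.8 and 20.9 FPKM in Kelly and 23.4, 32.4 and 22.9 FPKM in NGP, again without a called difference. Its exons share 17.5% of their length with HOXC6, and fragments on shared bases were not assigned to either gene. Without the shared bases the mean of HOXC4 would be 26.5 in place of 21.9 ± 1.02 FPKM (SD, n = 3) in Kelly, and that of HOXC5, which shares 33.9%, 7.63 in place of 5.05 ± 0.501 FPKM.

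HOXD3, an anterior gene, was the highest HOXD gene of Kelly at 6 days with 14.7, 17.5 and 14.1 FPKM, and NGP had 13.3, 17.0 and 14.1 FPKM. HOXD13, the most posterior gene of its cluster and best known for patterning digits, was the highest HOXD gene of NGP. In the Kelly DMSO inputs of 1 day the highest HOXC gene was HOXC4 (16.8 ± 0.735 FPKM) and the highest HOXD gene HOXD13 (9.73 ± 0.557 FPKM; SD, n = 3). The remaining members at or above 1 FPKM in Kelly were HOXC5, HOXC6, HOXC8, HOXD1, HOXD4, HOXD8, HOXD9 and HOXD10, with means from 1.85 ± 0.278 (HOXD10) to 14.7 ± 0.416 FPKM (HOXD4; SD, n = 3). HOXC10 to HOXC13 had 13 fragments in all 3 Kelly libraries together.

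The HOXA cluster set the lines apart. In Kelly at 6 days 10 of 11 HOXA genes had no fragment in any DMSO input, and HOXA7 had 1. NGP had 1825 HOXA fragments. HOXA7, a trunk gene, stood at 13.4, 14.0 and 13 FPKM there, and HOXA11, known for its part in limb and uterus, at 6.78, 8.65 and 6.45 FPKM. The libraries of the lines were far apart for both genes.

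Against a floor of 3 counts per library, HOXA11 was at least 80.5-fold higher in NGP, HOXA10 at least 24.5-fold, HOXA5 at least 15-fold and HOXA6 at least 13.4-fold. HOXA3 was at least 4.07-fold, HOXA4 at least 3.15-fold and HOXA9 at least 2.03-fold higher. For HOXA7, with 862 fragments against 1, the ratio of mean CPM was 1202, with a 95% interval of 215 to 47529 that covers counting error only. HOXA2 and HOXA13 were below the floor in both lines. A HOXB gene had at most 6 fragments in Kelly (HOXB7) and 1 in NGP (HOXB13) over 3 libraries, below the floor as well.

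In the fit of Kelly against NGP (DMSO inputs at 6 days; edgeR quasi-likelihood test, Benjamini-Hochberg adjustment over all genes, threshold 0.05), 18 members could be tested and 10 were called, where 60.8% of all genes were. Of these, 8 were lower in Kelly (29.1% of all genes) and 2 higher (31.7%). HOXA genes made up 5 of the 8 lower ones. They had 0 or 1 fragments in Kelly and passed the filter through NGP, so nothing is read from the count. The posterior HOXD genes were among the lower ones. HOXD11, a forearm and kidney gene, stood at 0.899, 0.592 and 0.268 FPKM in Kelly and 7.18, 8.46 and 6.67 FPKM in NGP. It was lower by a log2 difference of −3.46 ± 0.377 SE (adjusted p = 2.31e-05, edgeR).

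HOXD10 stood at 1.54, 2.06 and 1.96 FPKM in Kelly against 7.93, 5.19 and 8.13 FPKM in NGP (log2 −1.74 ± 0.241, adjusted p = 0.000121, edgeR). HOXD13 stood at 11.7, 13.2 and 11.3 FPKM against 20.9, 20.01 and 22.4 FPKM (log2 −0.61 ± 0.118, adjusted p = 0.0012, edgeR). The libraries of the lines were apart for these genes, which were picked as called, in a comparison that called 60.8% of all genes. HOXD10 and HOXD11 share 16.8% and 21.4% of their exon length with each other.

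HOXC6, a thoracic gene, stood at 8.33, 7.15 and 7.45 FPKM in Kelly and lower in NGP, at 4.74, 5.90 and 5.84 FPKM (log2 0.68 ± 0.165, adjusted p = 0.00487, edgeR). HOXD1, the most anterior HOXD gene, stood at 1.67, 3.44 and 2.66 FPKM against 0.528, 1.42 and 1.21 FPKM (log2 1.52 ± 0.481, adjusted p = 0.0186, edgeR). Both directions turned when the Kelly libraries of 1 day took the place of those of 6 days, to −0.51 for HOXC6 and −0.79 for HOXD1. The HOXD1 call was also lost without Kelly replicate 2 (log2 1.26), Kelly replicate 3 (1.49) or NGP replicate 1 (1.15). With the 1 day libraries 18 members were called, every one lower in Kelly. Without NGP replicate 2, HOXD3 (0.37) and HOXD4 (1.155) were called higher in Kelly.

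HOX levels were lower in the Kelly DMSO inputs of 1 day than in those of 6 days. All 39 members summed to 174, 179 and 174 CPM at 1 day and to 312, 331 and 317 CPM at 6 days. HOXC9 stood at 6.48, 6.34 and 6.49 FPKM at 1 day, well below each library of 6 days. The 13 neuroblastoma markers summed to 17910 to 19700 CPM at 1 day and 32820 to 33620 CPM at 6 days, with CHGA at a mean of 7250 and 19000 CPM and DBH, in the other direction, at 2740 and 1600 CPM. Their part in the difference was not tested. Per the file headers the libraries of the days lay in separate folders, so day and folder cannot be told apart, and the sources used here do not say what a folder stands for. HOXA and HOXB fragments were also spread over more genes at 1 day, 49 fragments over 10 HOXA genes in the DMSO inputs, with no gene above 0.198 FPKM.

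Xenografts of Kelly cells kept the pattern of the cultured line. In the vehicle tumours 11 members reached 1 FPKM, all of them among the 12 of the culture, and no HOXA gene had a fragment. HOXC9 was the highest at 38.8 and 20.5 FPKM, and the HOX genes summed to 329 and 277 CPM. The HOXC9 values of the 2 tumours lay on either side of those of the culture.

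Of 13 members tested against the culture at 6 days, 3 were called, where 40.8% of all genes were, 20.4% higher and 20.4% lower. HOXD13 was higher at 17.0 and 15.2 FPKM (log2 0.47 ± 0.145, adjusted p = 0.0321, edgeR). HOXD4 was lower at 4.5 and 8.23 FPKM (log2 −1.10 ± 0.275, adjusted p = 0.0131, edgeR), and HOXD8 was lower at 2.12 and 5.49 FPKM (log2 −0.99 ± 0.34, adjusted p = 0.0456, edgeR). These genes were picked as called, so that their tumours lay apart from the culture is no further result. All 3 calls were lost, in the same direction, without Kelly replicate 1, 2 or 3, where adjusted p reached 0.0624, 0.162 and 0.1249 for HOXD4, HOXD8 and HOXD13. Without tumour replicate 1 there were 7 called members and without replicate 2 there were 6. HOXC9 was lower (−0.34) without the first and higher (0.61) without the second.

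With STM2457, 4 members rose in Kelly cells at 1 day and 8 at 6 days, and no member was called lower. The called members were HOXC and HOXD genes, as were all that could be tested in Kelly other than HOXB9 at 1 day. Their clusters are thus no result. The sum over all 39 members in the inputs went from 312, 331 and 317 CPM with DMSO to 462, 456 and 502 CPM with STM2457 at 6 days. At 1 day it went from 174, 179 and 174 to 218, 235 and 232 CPM, and in NGP from 411, 521 and 435 to 607, 673 and 551 CPM. In these 3 experiments every STM2457 library lay above every DMSO library. This also held in all 3 for the 9 genes of PBX, MEIS and PKNOX proteins, described below (466 to 476 and 640 to 706 CPM in Kelly at 6 days). There 18 retinoic acid genes went the other way (891 to 974 and 767 to 803 CPM). The sums are scaled to the library total alone, so nothing particular to the members is read from them. In the xenografts the HOX sums were 329 and 277 CPM with vehicle and 325 and 318 CPM with STM2457, which overlap.

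In Kelly at 6 days 13 members could be tested and 8 were called, all higher, where 26.6% of all genes were called and 11.9% called higher. The members' median log2 change was 0.44, against −0.00 over all genes (−0.0045), and 12 of 13 lay above 0. By position, 7 of the 8 members tested in paralogue groups 4 to 9 were called. In groups 10 to 13 it was 1 of 3 (HOXD13), and in groups 1 to 3 it was 0 of 2. The uncalled HOXD1, HOXD10 and HOXD11, at lower counts, had log2 changes of 0.41, 0.33 and 0.38. Those of the uncalled HOXC5 and HOXD3 were −0.08 and 0.04. No pattern by position is read from the calls. By cluster 4 were HOXC genes and 4 HOXD genes. In 8 members every STM2457 library lay above every DMSO library, which held for 29.6% of all genes.

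HOXC9 went from 23.0, 28.8 and 27.9 FPKM to 48.6, 44.6 and 51.6 FPKM, a log2 change of 0.74 ± 0.0908 SE (adjusted p = 1.7e-05, edgeR). HOXD9, its paralogue, went from 13.2, 12.6 and 14.6 FPKM to 24.2, 25.9 and 27.0 FPKM (log2 0.82 ± 0.0944, adjusted p = 1.01e-05, edgeR). Both genes of the ninth group were far above their controls in every treated library, and they were the largest changes among the members.

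HOXD8, a trunk gene, went from 7.17, 8.04 and 9.46 FPKM to 13.2, 13 and 14.8 FPKM (log2 0.61 ± 0.114, adjusted p = 0.000785, edgeR). HOXC8, its paralogue and a regulator of the brachial and thoracic level, went from 9.04, 8.13 and 7.94 FPKM to 13.4, 12.6 and 9.90 FPKM (log2 0.44 ± 0.122, adjusted p = 0.0131, edgeR). The third STM2457 library of HOXC8 was close to its controls. The HOXC8 call was lost without DMSO replicate 2 (log2 0.42), DMSO replicate 3 (0.41) or STM2457 replicate 2 (0.42).

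HOXC4 went from 22.9, 21.8 and 20.9 FPKM to 29.1, 27.0 and 34.9 FPKM (log2 0.35 ± 0.0869, adjusted p = 0.00743, edgeR). HOXD4, its paralogue, went from 14.9, 14.9 and 14.2 FPKM to 19.8, 21.0 and 29.6 FPKM (log2 0.52 ± 0.137, adjusted p = 0.00979, edgeR). In both genes the third STM2457 library, the shallowest at 5765458 fragments, was the highest. Neither call was lost without it.

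HOXC6 went from 8.33, 7.15 and 7.45 FPKM to 11, 11 and 12.9 FPKM (log2 0.48 ± 0.101, adjusted p = 0.0021, edgeR). HOXD13 went from 11.7, 13.2 and 11.3 FPKM to 17.0, 19.7 and 16 FPKM (log2 0.45 ± 0.101, adjusted p = 0.00377, edgeR). In both genes the groups were apart. Members that were not called were HOXC5, HOXD1, HOXD3, HOXD10 and HOXD11, with log2 changes from −0.08 (HOXC5) to 0.41 (HOXD1). With all 22 inputs of the series in 1 fit, which share 1 estimate of the spread, HOXC9 and HOXD9 alone were called at 6 days and 0 members at 1 day.

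**Figure D2:**
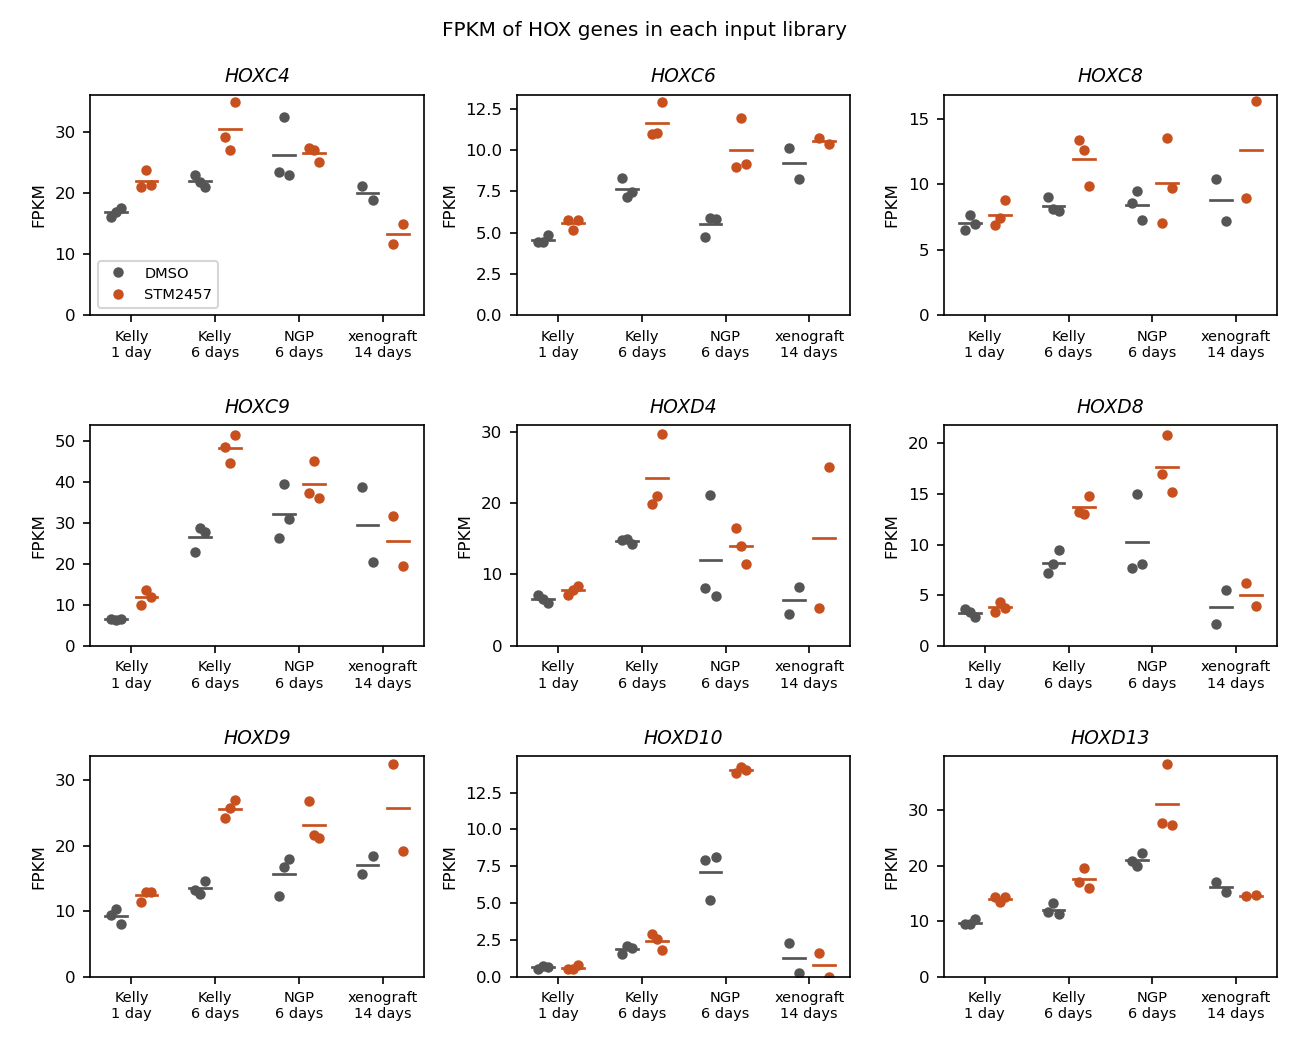
FPKM of HOX genes in every input library, DMSO beside STM2457, by experiment. In Kelly at 6 days each STM2457 library of HOXC9 (44.6 to 51.6 FPKM) lies above each DMSO library (23.0 to 28.8 FPKM), while the xenograft libraries overlap.

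At 1 day, 14 members could be tested in Kelly and 4 were called, all higher, where 17.5% of all genes were called, 9.41% higher and 8.06% lower. HOXC9 went from 6.48, 6.34 and 6.49 FPKM to 10.0, 13.6 and 11.9 FPKM (log2 0.85 ± 0.121, adjusted p = 0.00013, edgeR). HOXD13 went from 9.41, 9.41 and 10.4 FPKM to 14.3, 13.4 and 14.4 FPKM (log2 0.50 ± 0.0853, adjusted p = 0.000605, edgeR). These groups did not overlap.

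HOXC4 went from 16.1, 16.9 and 17.5 FPKM to 20.9, 23.8 and 21.2 FPKM (log2 0.36 ± 0.071, adjusted p = 0.00211, edgeR). HOXD9 went from 9.47, 10.4 and 8.05 FPKM to 11.4, 13 and 12.9 FPKM (log2 0.39 ± 0.11, adjusted p = 0.0208, edgeR). Treated libraries lay above the controls in both genes. This held for 7 of the 14 members and 20.8% of all genes, and the reverse for 1 member and 13.6%. That member was HOXB9, with 12, 13 and 14 fragments with DMSO and 8, 5 and 6 with STM2457 (log2 −1.001, not called). The HOXD9 call was lost without DMSO replicate 3 (log2 0.28), STM2457 replicate 2 (0.36) or STM2457 replicate 3 (0.36). The members' median was 0.25 against 0.01 over all genes. HOXC5 was called higher without DMSO replicate 1 (0.62).

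The 4 members called at 1 day were also called at 6 days, where 26.6% of all genes were called. The share among all genes called at 1 day is not given, so nothing is read from this overlap. The difference between the responses of the days was called in 0 of 14 members, where 8.41% of all genes were called, 3.67% with the higher change at 6 days. At an unadjusted p under 0.05 there were 3, and DESeq2 called 1. That gene was HOXD9, whose change was larger at 6 days by 0.44 ± 0.147 (log2, adjusted p = 0.0636, edgeR). HOXD9 was called without Kelly DMSO replicate 3 of 1 day (0.54) and, at 6 days, without DMSO replicate 3 (0.56), STM2457 replicate 1 (0.53) or STM2457 replicate 3 (0.48), and HOXC8 also in the last of these (0.51).

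In NGP 22 members could be tested and 1 was called, where 4.23% of all genes were called, 2.07% higher and 2.16% lower. That gene, HOXD10, went from 7.93, 5.19 and 8.13 FPKM to 13.8, 14.3 and 14.0 FPKM (log2 0.91 ± 0.232, adjusted p = 0.0248, edgeR). The treated libraries lay close together, well above the controls. The call was lost without any 1 of the 6 libraries, at log2 changes from 0.75 (without DMSO replicate 2) to 1.02 (without DMSO replicate 3). Without DMSO replicate 2, 2 other members were called, HOXC6 and HOXD8.

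The members' median in NGP was 0.46, against 0.01 over all genes, and 20 of 22 lay above 0. HOXC6 went from 4.74, 5.90 and 5.84 FPKM to 9, 12 and 9.13 FPKM (log2 0.79 ± 0.238, adjusted p = 0.0585, edgeR). HOXD13 went from 20.9, 20.01 and 22.4 FPKM to 27.8, 38.4 and 27.3 FPKM (log2 0.49 ± 0.184, adjusted p = 0.149, edgeR). Neither passed, although their libraries did not overlap. Non-overlap in this direction was seen in 6 members, HOXA7, HOXC6, HOXD8, HOXD9, HOXD10 and HOXD13, and in 15.1% of all genes.

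HOXA genes, measurable in NGP, were not called. HOXA7 went from 13.4, 14.0 and 13 FPKM to 16.9, 14.7 and 20.4 FPKM (log2 0.30 ± 0.204, adjusted p = 0.492, edgeR), and HOXA11 from 6.78, 8.65 and 6.45 FPKM to 9.11, 12.9 and 5.95 FPKM (log2 0.28 ± 0.283). The difference of response between Kelly and NGP at 6 days was called in 0 of 22 members, where 1.36% of all genes were. HOXA genes, which have no measurable Kelly response, made up 8 of the 22. At an unadjusted p under 0.05 there were 2, and DESeq2 called 0. For HOXC9 the difference was 0.55 ± 0.22 (log2, adjusted p = 0.282, edgeR).

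In the xenografts no member was called among 11 tested, where 0% of all genes were, while an unadjusted p under 0.05 was reached by 0 members, and DESeq2 called 0. HOXC9 went from 38.8 and 20.5 to 31.6 and 19.6 FPKM (log2 −0.08 ± 0.435), and HOXD9 from 15.7 and 18.4 to 32.5 and 19.2 FPKM (log2 0.73 ± 0.4). Both treated tumours lay above both controls in 2 members, HOXC6 and HOXD9 (14.3% of all genes), and below them in 2, HOXC4 and HOXD13 (27.7% of all genes). HOXD4 reached 25.0 FPKM in STM2457 replicate 2 against 5.24 FPKM in replicate 1, and it was called when replicate 1 was left out (log2 2.09), with the lone library assumed to vary like the controls.

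**Figure D3:**
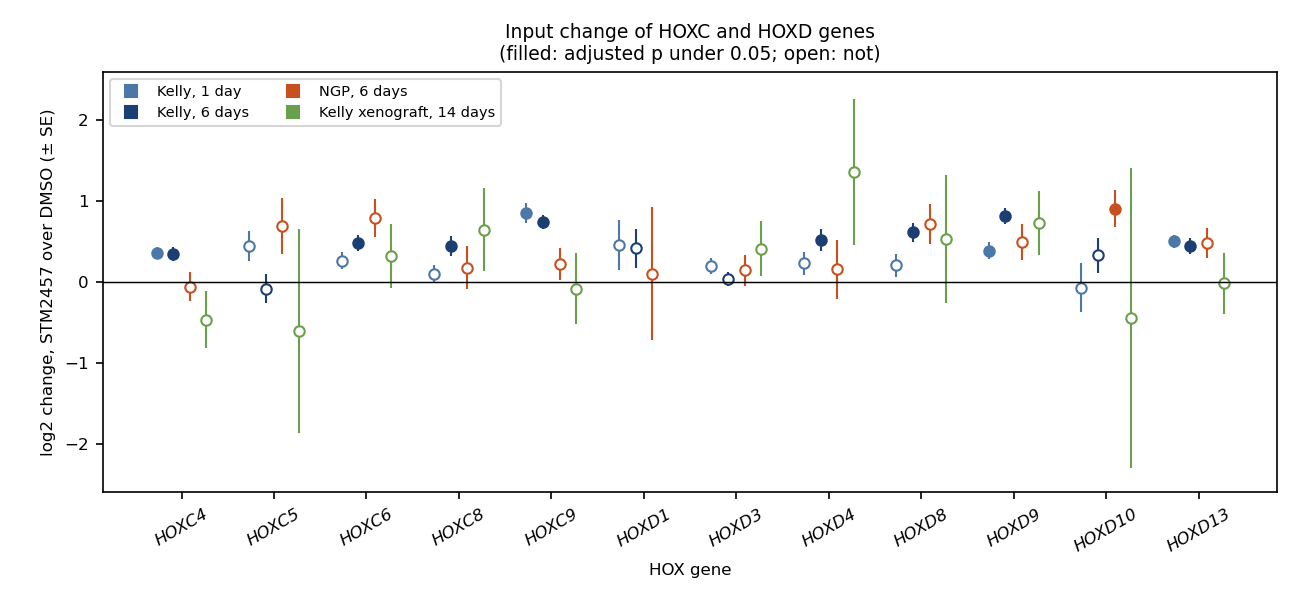
Log2 change of input RNA with STM2457 over DMSO (± SE) for the HOXC and HOXD genes, by experiment, with filled points for an adjusted p under 0.05. Kelly points lie mostly above 0, with HOXC9 at 0.85 and 0.74, and the xenograft errors are the widest.

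Genes at work with or around the HOX clusters gave a mixed picture. PBX, MEIS and PKNOX proteins bind DNA together with HOX proteins. Of these 9 genes, 5 rose and none fell in Kelly at 6 days (median log2 0.32), 3 rose and none fell at 1 day (0.13), and 1 rose and none fell in NGP (0.07). Over all genes 11.9% rose and 14.7% fell in Kelly at 6 days, 9.41% and 8.06% at 1 day, and 2.07% and 2.16% in NGP. Of 12 retinoic acid genes tested in Kelly at 6 days, 3 rose and 4 fell. Those that fell included CRABP2 (log2 −1.59 ± 0.0958, adjusted p = 9.11e-09, edgeR) and CRABP1 (−1.07 ± 0.0671), which bind retinoic acid in the cytoplasm, and CYP26B1 (−1.29 ± 0.396), which degrades it. In NGP 2 of 12 rose and none fell. The 2 were RXRA and CRABP2, which went the other way there (log2 0.87 ± 0.221, adjusted p = 0.0246, edgeR). At 1 day in Kelly CRABP2 was not called (0.18 ± 0.159).

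Of 22 chromatin regulators of HOX genes (Polycomb, KMT2A complexes, CTCF), 6 rose and 3 fell in Kelly at 6 days, 3 rose and 4 fell at 1 day, and none was called in NGP. CDX and EVX genes could not be tested for change in the inputs. Among 20 genes that lie beside the clusters, 15 were tested in Kelly at 6 days, of which 2 rose and 1 fell, with a median of 0.01. The shares of all genes that rose and fell were 11.9% and 14.7% in Kelly at 6 days and 9.41% and 8.06% at 1 day. In NGP they were 2.07% and 2.16%. No gene of these lists was called in the xenografts, where 0% of all genes were. Leukocyte markers summed to 27.6 to 33.3 CPM with DMSO and 15.7 to 17.5 CPM with STM2457 in Kelly at 6 days. The fall was that of CD74 (means 20.1 and 6.1 CPM), while CD68 stood at 10.6 and 10.3 CPM. PTPRC and LYZ were at or near 0 in both groups. The 13 neuroblastoma markers summed to 32820 to 33620 CPM with DMSO and 36360 to 40390 CPM with STM2457. The part of these markers in the HOX result was not tested.

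Between the lines, the largest differences in these lists were in RXRG (1.21 ± 0.182 CPM in Kelly, SD, n = 3, and no fragment in NGP), CRABP1 (log2 Kelly over NGP 3.20 ± 0.17) and RARB (−2.68 ± 0.587) of retinoic acid. In the cofactors they included MEIS1 (−1.94 ± 0.146) and PBX4 (1.39 ± 0.382). MEIS1 was thus lower in the line without HOXA RNA. In the chromatin list they were in CBX7 (2.28 ± 0.384), BMI1 (−1.79 ± 0.227) and CBX8 (1.44 ± 0.167), all Polycomb genes. Over the 22 inputs, the genes outside the clusters whose log2(CPM + 1) was most like that of HOXC9, among 10638, were TUBB2A (r = 0.957), TRIR (0.955) and TUBB2B (0.95), a description that includes differences of line, day and depth.

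In the RIP libraries HOX fragments were more frequent than in the inputs. With DMSO, members summed to 1004, 1002 and 914 CPM in the RIP of Kelly at 6 days, against 312, 331 and 317 CPM in the inputs. NGP had 998, 727 and 672 CPM against 411, 521 and 435 CPM. Every RIP library lay above every input. The ratio of RIP over input of a gene is relative to all other genes of the library and is not the share of methylated molecules.

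At 6 days in Kelly, 13 members could be tested and 7 had a ratio above 1 and 1 below it, where 58% of all genes were called, 28.8% above and 29.2% below. The median log2 ratio was 1.13 over the members and −0.10 over all genes (−0.105). In NGP 24 members could be tested and 8 lay above and 1 below, where 55.5% of all genes were called, 29% above and 26.5% below. Its medians were 0.60 and 0.08. HOXA13, 1 of the 8, passed the filter through its RIP libraries, where it was high. At 1 day in Kelly 9 of 16 lay above and 0 below, where 67.6% of all genes were called, 33.3% above and 34.3% below. There input and RIP lay in separate folders, so folder and library type cannot be told apart. HOXD10 was among the 9, with a call lost without DMSO replicate 1 (log2 1.34), 2 (1.51) or 3 (1.40). HOXC5 was called as well without STM2457 replicate 1 (0.94), and HOXD12, with few fragments, below 1 without DMSO replicate 1. Called above in all 3 were HOXC6, HOXC8, HOXC9, HOXD8 and HOXD13. The share of all genes called above in all 3 is not given, so nothing is read from this overlap.

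HOXC8 had the highest ratio of Kelly at 6 days. It stood at 21.8, 19.6 and 19.2 CPM in the DMSO inputs of 6 days and at 186, 134 and 151 CPM in the RIP (log2 2.92 ± 0.197, adjusted p = 1.59e-07, edgeR). HOXD13 stood at 28.3, 32.0 and 27.4 CPM and at 186, 178 and 235 CPM (log2 2.73 ± 0.34, adjusted p = 2.32e-05, edgeR). All RIP libraries of both genes were several times above all inputs. HOXD10 was called as well without STM2457 replicate 3 (1.11).

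HOXC4 was the member below 1 in Kelly at 6 days. It held 63.4, 60.4 and 57.7 CPM in the inputs and 37.5, 40.3 and 38.7 CPM in the RIP (log2 −0.69 ± 0.174, adjusted p = 0.00493, edgeR). That call was lost without DMSO replicate 1 (−0.50). At 1 day the log2 ratio of HOXC4 was 0.12 ± 0.208 and not called. HOXC6, which shares exons with HOXC4, stood at 28.8, 24.7 and 25.8 CPM and at 60.9, 52.7 and 45.0 CPM at 6 days (log2 0.96 ± 0.264, adjusted p = 0.00796, edgeR). The HOXC6 call was lost without DMSO replicate 2 (0.93). At 6 days these genes of the same cluster thus lay on opposite sides of 1.

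In NGP the called ratios were highest in HOXA13 and HOXD10, followed by HOXC8 (1.67) and HOXA7 (1.54) of the middle of the clusters. HOXA13, the last HOXA gene, was near background in the inputs at 0.362, 0 and 0.696 CPM and stood at 4.70, 3.92 and 2.37 CPM in the RIP (log2 3.10 ± 0.914, adjusted p = 0.00614, edgeR). Its ratio rests on 11 input fragments. It passed the filter through the RIP libraries, where it was high, so nothing is read from its rank. HOXD10 stood at 21.4, 14.0 and 21.9 CPM and at 70.6, 83.9 and 72.5 CPM (log2 1.89 ± 0.2, adjusted p = 5.53e-08, edgeR). HOXD10 thus had the best measured high ratio of that line.

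HOXD3 was the member below 1 in NGP, with 47.1, 60.3 and 49.8 CPM in the inputs and 40.3, 26.5 and 19.0 CPM in the RIP (log2 −0.98 ± 0.234, adjusted p = 0.00109, edgeR). HOXC6 had the lowest called ratio above 1, at 16.4, 20.4 and 20.2 CPM against 54.7, 29.4 and 27.5 CPM (log2 0.86 ± 0.269, adjusted p = 0.00928, edgeR). It was lost without DMSO replicate 1 (0.40), as was HOXD13 (0.46), whose first RIP library held 168 CPM and the others 79.2 and 70.3 CPM. Without DMSO replicate 2, HOXD4 was called as well (1.16), and without DMSO replicate 1 HOXD9 was called below 1 (−0.83).

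In the xenografts 0 of 13 members were called, where 3.75% of all genes were, 1.61% above and 2.15% below, although the median log2 ratio was 1.5 (all genes −0.16). At an unadjusted p under 0.05 there were 5, and DESeq2 called 4. HOXC8 stood at 25.1 and 17.5 CPM in the inputs and 175 and 172 CPM in the RIP (log2 3.05 ± 0.815, adjusted p = 0.072, edgeR), and HOXC9 at 64.6 and 34.1 and at 348 and 257 CPM (log2 2.62 ± 0.63, adjusted p = 0.0546, edgeR). For these genes, leaving out input and RIP of STM2457 replicate 1 gave log2 ratios of 3.01 and 2.58. Leaving out those of replicate 2 gave 3.05 and 2.62. In both genes, RIP and input libraries were far apart.

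The ratio differed between the lines for 5 of 22 members, all higher in Kelly, where 46.1% of all genes were called and 22.2% higher in Kelly. HOXA genes made up 8 of the 22, and their fitted values have no meaning where Kelly had next to no fragments, so no median over the members is given. HOXD3 stood apart most: its inputs were alike, at 52.2, 62.1 and 50.1 CPM in Kelly and 47.1, 60.3 and 49.8 CPM in NGP, while its RIP held 182, 172 and 140 CPM in Kelly and 40.3, 26.5 and 19.0 CPM in NGP. The log2 ratio was higher in Kelly by 2.70 ± 0.328 (adjusted p = 2.01e-05, edgeR).

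HOXD13 differed by 1.96 ± 0.361 (adjusted p = 0.000458, edgeR), HOXC8 by 1.42 ± 0.342 (adjusted p = 0.00329) and HOXD4 by 1.96 ± 0.531 (adjusted p = 0.00722). The HOXD4 RIP held 88.5, 66.5 and 64.3 CPM in Kelly and 26.5, 13.7 and 13.8 CPM in NGP. Its NGP inputs were uneven at 9.14, 24 and 7.96 CPM, and without NGP DMSO replicate 2 the difference was 1.02 and not called. HOXD9 differed by 1.03 ± 0.393 (adjusted p = 0.0429, edgeR). It was lost without Kelly DMSO replicate 1 (1.03) or 3 (0.76) and without NGP DMSO replicate 2 (0.73) or 3 (0.80). HOXC9, HOXC6 and HOXD8 were enriched in both lines and their differences were not called. HOXD11 was called without Kelly DMSO replicate 1 (2.16).

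**Figure D4:**
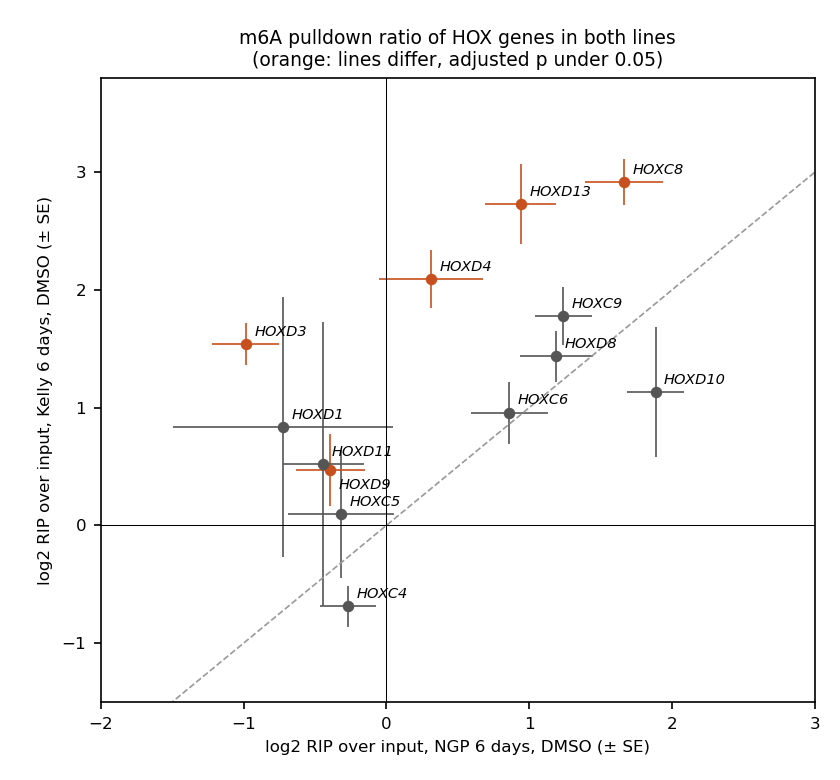
Log2 ratio of RIP over input in DMSO for the HOXC and HOXD genes, NGP on the horizontal and Kelly (6 days) on the vertical axis, with SE bars and a dashed line of equality. The orange points, HOXC8, HOXD3, HOXD4, HOXD9 and HOXD13, lie above the line, and HOXD3 is farthest from it.

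The relation of the ratio to exon GC also differed between the lines. Across all genes tested, the Spearman correlation of the log2 ratio with exon GC was −0.483 in NGP (13077 genes) and 0.107 in Kelly at 6 days (13314 genes). Among members it was −0.51 (24 genes) and −0.313 (13 genes). Among the 5 members that differed, exon GC was 57.7% in HOXD3, 51.9% in HOXD13, 60% in HOXD4, 49.6% in HOXC8 and 62.6% in HOXD9. The part of GC in the differences of the ratio between lines was not tested. Both lines also had their libraries in folders of their own, so folder and line cannot be told apart.

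The ratio fell with STM2457 in 3 members in Kelly at 1 day. GGACT, a frequent form of the motif that METTL3 methylates, is shown in capitals at examples from the exons of these members, HOXC9, HOXC6 and HOXD13, each with 10 bases on either side (GRCh38, coding by GENCODE 44). A motif is not a measured m6A site.
HOXC9 (chr12:54000214-54000238, plus strand, coding): actattacgtGGACTcgctcatctc
HOXC9 (chr12:54000313-54000337, plus strand, coding): gtttggtgccGGACTgtagcgattt
HOXC9 (chr12:54000459-54000483, plus strand, coding): cgctacatgcGGACTtggctcgagc
HOXC9 (chr12:54000562-54000586, plus strand, coding): ggcgccgcgcGGACTgcggcccagg
HOXC9 (chr12:54000595-54000619, plus strand, coding): gcagctacccGGACTacatgtacgg
HOXC6 (chr12:54028840-54028864, plus strand, coding): gagcagggcaGGACTgcgccccagg
HOXC6 (chr12:54029956-54029980, plus strand, not coding): agagtgaccaGGACTgtccctgcca
HOXD13 (chr2:176095006-176095030, plus strand, not coding): cagtataaagGGACTtgaagtattt
HOXC9 held 3 GGACT per kilobase of exon, all of them coding, HOXC6 0.868 and HOXD13 0.414, where the median of all genes was 0.917. HOXC8 held 2.07. Among the members tested, the Spearman correlation of GGACT per kilobase with the log2 ratio was 0.232 in Kelly at 1 day (16 genes), −0.0989 at 6 days (13) and 0.236 in NGP (24). Over all genes tested it was 0.0878, 0.101 and −0.125.

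At 1 day the ratio fell in 3 of 16 members, where 17.2% of all genes were called, 7.62% lower and 9.53% higher, and rose in none. HOXC6 held 61.7, 57.5 and 62.1 CPM in the RIP with DMSO and 35, 42.9 and 40.5 CPM with STM2457, so that the RIP itself was lower in every treated library (log2 change of the ratio −0.81 ± 0.198, adjusted p = 0.014, edgeR). HOXC9 held 45.0, 50.6 and 46.0 and then 50.1, 36.7 and 35.4 CPM, which overlap, while its input rose (−0.995 ± 0.254, adjusted p = 0.0175, edgeR). HOXD13 held 80.9, 97.2 and 100 and then 80.7, 78.8 and 64.6 CPM (−0.74 ± 0.178, adjusted p = 0.0125, edgeR). For HOXC9 and HOXD13 the fall of the ratio stood beside a rise of the input.

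Each of these calls was lost on leaving out single replicates, with input and RIP of a replicate left out together. When replicate number was added to the fit as a block, 1 of the 3 calls was left. The HOXC6 call was lost without DMSO replicate 1 (−0.78), 2 (−0.82) or 3 (−0.73). The HOXC9 call was lost without DMSO replicate 1 (−1.04), 2 (−0.93) or 3 (−0.91) and without STM2457 replicate 2 (−0.83) or 3 (−0.88). The HOXD13 call was lost without DMSO replicate 2 (−0.68) or 3 (−0.62). HOXC8, whose ratio was among the highest, held 87.0, 94.8 and 106 and then 77.2, 103 and 91 CPM (−0.12 ± 0.204).

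At 6 days the ratio changed in 0 of 13 members in Kelly, where 2.06% of all genes were called. At an unadjusted p under 0.05 there was 1, and DESeq2 called 1. That gene was HOXC6, with 60.9, 52.7 and 45.0 CPM in the RIP with DMSO and 31.5, 25.4 and 14.7 CPM with STM2457, while its input rose (−1.41 ± 0.372, adjusted p = 0.0741, edgeR). It was called without STM2457 replicate 1 (−1.64). The RIP groups were fully apart.

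In NGP 0 of 24 members were called, where 0% of all genes were. At an unadjusted p under 0.05 there were 2, and DESeq2 called 0. HOXC9 held 153, 130 and 125 CPM and then 62.0, 85.3 and 70.2 CPM (−1.11 ± 0.276, adjusted p = 0.839, edgeR), and HOXC6 54.7, 29.4 and 27.5 and then 25.9, 19.1 and 32.7 CPM (−1.28 ± 0.378, adjusted p = 0.839, edgeR). The RIP of HOXC9 was lower in all treated libraries and that of HOXC6 overlapped. In the xenografts 0 of 13 were called, where 0% of all genes were, while an unadjusted p under 0.05 was reached by 0 members, and DESeq2 called 0. The members' median change of the ratio was −0.24 at 1 day, −0.14 at 6 days and −0.38 in NGP, against −0.03, 0.20 and −0.00 (−0.00342) over all genes. In the xenografts it was −1.4 against 0.12, with 1 of 13 members above 0.

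**Figure D5:**
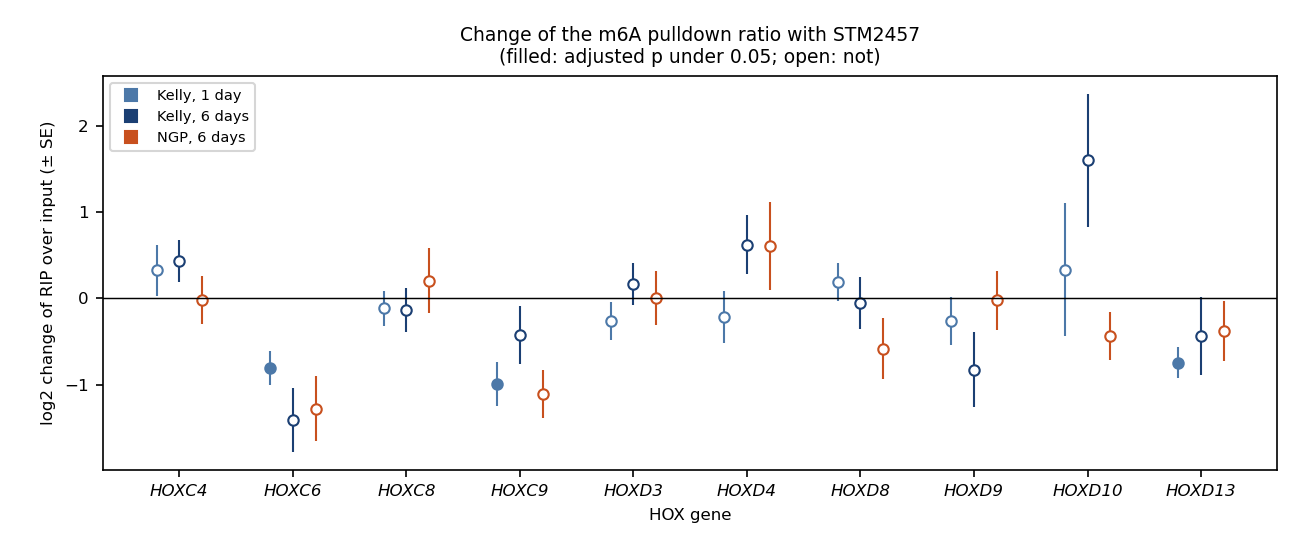
Log2 change of the ratio of RIP over input with STM2457 (± SE) for the HOXC and HOXD genes in the cell lines, with filled points for an adjusted p under 0.05. HOXC6 is below 0 in all 3 experiments (−0.81, −1.41 and −1.28), and the filled points are those of HOXC6, HOXC9 and HOXD13 in Kelly at 1 day.

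Counting was not by strand, so RNA antisense to a HOX gene counts as that gene. By GENCODE 44, 22 of 39 members have a long non-coding RNA on their exons. HOXC-AS2 lies antisense to HOXC6 and HOXC9, HAGLR to HOXD1 and HOXD3, HOXD-AS2 to HOXD3 and HOXD8, and HOXA-AS3 to HOXA7. None overlaps the exons of HOXC8, HOXD4, HOXD9, HOXD10, HOXD11 or HOXD13. Of these, HOXC8, HOXD4, HOXD9 and HOXD13 were among the 8 that rose in Kelly at 6 days, and HOXD10 and HOXD11 were not called. The rest of the 8, HOXC4, HOXC6, HOXC9 and HOXD8, do have such an RNA on their exons. The part of these RNAs in the rise was not tested.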

How the data were processed

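Each library came as 1 table of raw counts per gene that the authors deposited. Counting was by featureCounts 1.5.3 over exons, in fragments and with no strand option, per the file headers, on the protein-coding GENCODE 33 annotation (GRCh38). The submitters' processing notes name HISAT2 2.1.0, Trimmomatic 0.36 and FastQC 0.11.5, and spike-in RNAs are not analysed here. Groups follow the labels. The members, gene lists and comparisons were chosen with earlier results of these data known.

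Tests were edgeR 4.0.16 quasi-likelihood tests (R 4.3.3, TMM, filterByExpr with minimum count 10 and minimum total 15, Benjamini-Hochberg at 0.05 over all genes, two-sided), fitted per experiment, with terms for library type, treatment and their interaction where RIP was used. Kelly 6 days and NGP 6 days were compared in joint fits. FPKM uses the deposited length. Standard errors derive from the log2 change and the F value. The fits were tested on simulated data. Alternatives were RLE, DESeq2 1.42.0, no filter, a replicate block, all 22 inputs in 1 fit and Kelly at 1 day in place of 6 days. Each library was also left out in turn. For ratios of RIP over input, the input and RIP of a replicate were left out together.

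Named with values in every library are the highest members of each line and cluster, members called with STM2457, the largest differences between lines and the extreme called ratios. Others are given beside them. The 40 replicate pairs differed by more than sampling noise (lowest chi-square per degree of freedom 2.73). Of the members' 250 exons, 91.6% have identical coordinates in GENCODE 44. Some items are not reported here.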

Additional observations from a re-analysis of the deposited data

Results flagged for a closer look

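The ratio of RIP over input in DMSO differed between Kelly at 6 days and NGP, by the interaction term of edgeR's quasi-likelihood test, for 5 members. The log2 difference, Kelly minus NGP, was 2.70 for HOXD3, 1.96 for HOXD4, 1.96 for HOXD13, 1.42 for HOXC8 and 1.03 for HOXD9. In each of the 5 the RIP libraries of Kelly were higher relative to their inputs. Among all genes 46.1% differed. Line, folder and GC dependence of the RIP libraries move together here, and their parts were not tested.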

How the results depend on the processing

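RLE factors, DESeq2, no low-count filter and the replicate block kept the number of called members within 1.5 times of the reported one, other than in the following. With all 22 inputs in 1 fit, 0 members were called at 1 day in Kelly and 2 (HOXC9 and HOXD9) at 6 days, at similar changes. In NGP input there were 2 with DESeq2, 3 without filter, 3 with the replicate block and 2 with all inputs in 1 fit, and in xenograft input 1 with all inputs. The ratio in the xenograft was called in 4 members with DESeq2, 3 without filter and 2 with the replicate block. Its change had 1 call with the block in Kelly at 1 day and 1 with DESeq2 at 6 days. The response of 6 days against 1 day had 1 with DESeq2 and 1 without filter. With Kelly at 1 day, 18 members differed from NGP, and HOXC6 (−0.51) and HOXD1 (−0.79) turned.

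Leaving out 1 library gave 0 to 2 calls in NGP input, 0 to 1 in xenograft input, 0 to 2 for the xenograft ratio, 0 to 3 and 0 to 1 for its change in Kelly at 1 and 6 days, 0 to 7 for xenograft against culture, 3 to 5 for the ratio between lines and 0 to 2 for the response between days.

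Replicate numbers were not taken to pair the libraries, since in no experiment did every pair of same-numbered DMSO and STM2457 inputs have a correlation of deviations over 0.1. They were −0.113, −0.0456 and −0.37 in Kelly at 1 day, −0.191, −0.116 and 0.0617 at 6 days and 0.0321, 0.179 and −0.0165 in NGP, whose second replicates were the shallowest in both arms. Input and RIP of the same number had correlations of 0.276, 0.015 and 0.173 in Kelly at 6 days with STM2457. In no group were all such correlations over 0.1, and the main fits did not pair input and RIP. The replicate block left 8 calls in Kelly input at 6 days and 4 at 1 day. Few fragments limit the xenograft and members such as HOXA13 and HOXD12.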

Other observations

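HOXA5 had 10 fragments in a single DMSO RIP library of Kelly at 6 days and none in the other RIP libraries or the inputs of that experiment. In the DMSO inputs of Kelly at 1 day HOXB genes held 69 fragments, the highest in HOXB9 with 0.198 FPKM, and HOXA genes held 49. At 6 days the DMSO inputs of Kelly held 12 HOXB fragments and 1 HOXA fragment. In the vehicle xenografts there were 7 HOXB fragments in 4 genes and no HOXA fragment.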
